A study of Homo sapiens with 8 samples.

Results

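The genes described are those of non-homologous end joining, DNA end protection and V(D)J recombination. They are the 30 of 61228 gene symbols in the deposited count table that match a list of 30 factors by symbol. All 30 were found. Of these, 29 passed the filter on low counts and were tested, as part of 14243 genes tested in all, and RAG2 did not pass. The data are RNA sequencing of 8 untreated clones of RPMI-8402, which is an established line of human T-cell acute lymphoblastic leukaemia. The design text puts C12, C15, S04 and S36 in an NKX2-1 knockout group and WT10, WT13, WT28 and WT30 in a wild-type group. Each library is 1 clone, and all clones share the background of the cell line. The kind of edit, and what the letters C and S stand for, are not stated in the labels.

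V(D)J recombination builds T-cell receptor genes in developing lymphocytes. The recombinase of RAG1 and RAG2, helped by the DNA-bending proteins HMGB1 and HMGB2, cuts beside receptor gene segments, and the ends are then joined by the general end joining pathway. In that pathway the Ku heterodimer (XRCC5 and XRCC6) binds ends, recruits the kinase PRKDC and the nuclease DCLRE1C (Artemis), and ligase IV with XRCC4 seals them. DNTT (terminal transferase) adds untemplated bases to receptor joints. TP53BP1, RIF1 and the shieldin complex protect broken ends from resection.

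Library totals were 18453947 to 22916424 counts in wild-type clones, 25423215, 2730285, 15340134 and 12344549 in clones C12, C15, S04, S36. C15 is thus the least deeply sequenced, and a count of 0 there allows up to 1.21 CPM, against 0.116 in C12. CPM is the count scaled to a common library total with correction for library composition, and such floors cover counting error only. Mitochondrial transcripts took 12.9% to 15.1% of counts in wild-type and 14.85% to 21.2% in knockout clones. NKX2-1 mRNA was at 72.0, 11.3, 83.6 and 33.4 CPM in clones C12, C15, S04, S36, against 53.6 to 63.2 in wild-type clones. Counts per gene cannot show an edit, so this does not check the labels. T-cell markers had a summed level of 1667 to 2041 CPM in wild-type and 1686 to 2162 in knockout clones over 10 genes. The CD3 genes and LCK carried most of that sum. CD5 (58.9 ± 16.1 against 100.6 ± 12.9 CPM, SD, n = 4 each) and CD7 (2.50 ± 1.23 against 6.06 ± 0.438) lay below wild type in every knockout clone. Of all tested genes 5.62% were so placed. Neither passed by edgeR (adjusted p = 0.138 and 0.152), and both passed by DESeq2 (adjusted p = 0.0241 and 0.0264), which called 3.66% of genes. Of 9 tested T-cell markers 4 had log2 fold changes above 0 and 5 below. ZAP70 was at most 0.735 CPM in any clone and at 0 counts in C15 and WT30. PTCRA varied from 0.0944 CPM in WT28 and 0.229 in S36 to 15.7 in C15. The part of these in the results was not tested. Summed over 6 genes, myeloid markers reached at most 1.87 CPM, with LYZ and CD33 at 0 counts, and B-cell markers 8.07 to 18.3 CPM, with MS4A1 at 0. Fibroblast and epithelial markers summed to 6.495 to 15.7 CPM in knockout and 14.4 to 21.1 in wild-type clones over 10 genes, with COL1A2, COL3A1, EPCAM and KRT19 at 0.

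Promoter windows of 300 bases (250 before and 50 from the RefSeq start site on) were listed in the RefSeq table (GRCh38.p14) for 24 of the 30 genes, with 37 windows in all. HMGB2, XRCC5, PRKDC, SHLD1, SHLD2 and PAXIP1 had no entry. Both strands were searched for 4 motifs. The core bound by NKX2 factors, CAAGTG, was present in 2 of the 37 windows, both overlapping windows of LIG4, and in 11.5% of all 35116 windows of the table. The core bound by RUNX factors, TGTGGT, was searched together with a variant of that core (TGCGGT), and either was present in 5 of 37 windows against 19.6% of all. The E-box bound by E-proteins, CAGGTG, has the same general form as the NKX2 core, and it was present in 7 of 37 windows against 20.6% of all. The overlapping windows of LIG4 are counted again for the RUNX core and the E-box, with the same sites. A further LIG4 window also held the E-box, so these windows are not independent. The TATA box, searched as TATAAA, was present in 1 of 37 windows against 11.5% of all. A match describes letters and not binding. The windows below are shown for DNTT and RAG1, the lymphocyte-specific members with the highest and one of the lowest levels, for LIG4, which alone holds the NKX2 core, and for RIF1 and APLF, members of chromosome 2 whose knockout levels lay below wild type and which were picked with their values known. Capitals mark matches to the searched motifs, and a window in lower case throughout holds none.
DNTT, chr10:96304184-96304483, plus strand: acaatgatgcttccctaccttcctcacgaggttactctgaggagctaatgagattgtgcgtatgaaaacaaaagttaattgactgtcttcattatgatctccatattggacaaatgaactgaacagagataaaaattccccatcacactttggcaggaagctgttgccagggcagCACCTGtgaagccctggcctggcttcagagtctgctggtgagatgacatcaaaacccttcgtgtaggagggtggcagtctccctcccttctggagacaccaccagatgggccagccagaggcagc
RAG1, chr11:36510103-36510402, plus strand: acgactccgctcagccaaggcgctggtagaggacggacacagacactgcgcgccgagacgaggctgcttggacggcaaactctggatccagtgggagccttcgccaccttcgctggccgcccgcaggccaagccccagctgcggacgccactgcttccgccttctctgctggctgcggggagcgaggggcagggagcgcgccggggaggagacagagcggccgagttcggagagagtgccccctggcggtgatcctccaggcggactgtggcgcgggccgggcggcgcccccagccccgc
LIG4, chr13:108215323-108215622, minus strand: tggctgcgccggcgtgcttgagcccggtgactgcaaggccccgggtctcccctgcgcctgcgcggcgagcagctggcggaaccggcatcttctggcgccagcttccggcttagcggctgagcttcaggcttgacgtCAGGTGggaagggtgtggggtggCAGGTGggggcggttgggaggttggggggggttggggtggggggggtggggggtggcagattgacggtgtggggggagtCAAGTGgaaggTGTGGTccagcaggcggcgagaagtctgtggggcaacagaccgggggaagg
RIF1, chr2:151409652-151409951, plus strand: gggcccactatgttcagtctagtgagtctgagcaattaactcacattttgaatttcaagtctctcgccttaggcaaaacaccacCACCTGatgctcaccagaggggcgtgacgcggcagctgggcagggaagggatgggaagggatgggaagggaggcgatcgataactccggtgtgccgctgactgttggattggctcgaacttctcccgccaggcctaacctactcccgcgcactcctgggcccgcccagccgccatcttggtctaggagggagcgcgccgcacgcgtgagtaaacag
APLF, chr2:68467335-68467634, plus strand: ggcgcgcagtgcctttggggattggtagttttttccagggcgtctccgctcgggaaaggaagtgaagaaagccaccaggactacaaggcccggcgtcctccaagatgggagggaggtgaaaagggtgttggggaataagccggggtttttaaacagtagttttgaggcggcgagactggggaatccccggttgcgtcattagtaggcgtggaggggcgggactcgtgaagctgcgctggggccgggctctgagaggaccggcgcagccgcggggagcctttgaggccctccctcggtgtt
The E-box of DNTT begins 75 bases before the start, and that of RIF1 166 bases before it. In LIG4 the NKX2 core begins 12 bases before the start and the RUNX core 1 base before it.

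Levels were first compared between genes as CPM per kb of the principal transcript (mean ± SD of the 4 wild-type clones). HMGB2, an architectural protein of proliferating cells, was highest at 788 ± 59.8. DNTT followed at 312 ± 24.9 and XRCC5 at 226 ± 4.18, ahead of MAD2L2 (174 ± 17.5), HMGB1 (100.1 ± 8.76) and XRCC6 (67.9 ± 4.29). The ranges of these first 6 did not overlap between neighbours in the order. RIF1 (35.9 ± 2.26) and PAXX (35.9 ± 1.56) could not be ranked against each other. APTX, KDM2A and PRKDC lay between 27.1 and 17.1. SHLD2, PAXIP1, NHEJ1, TDP2 and TDP1 formed a run from 12.2 to 9.34 whose neighbours overlapped, as did SETMAR, XRCC4, DCLRE1C, POLL, TP53BP1 and DCLRE1B from 8.29 to 5.43. APLF, SHLD1, LIG4, SHLD3, POLM and DCLRE1A were lower, from 3.17 to 0.785. The recombinase genes were last, RAG1 at 0.118 ± 0.0419 and RAG2 at 0.0998 ± 0.0711. Counts were thus high for DNTT and close to 0 for either recombinase subunit, in wild-type and knockout clones alike. The gene spans of RAG1 and RAG2, introns included, overlap on opposite strands. Whether their exons overlap was not examined, and how reads in any shared exon were counted is not stated. If exons are shared, the counts of both genes may miss part of their transcript.

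**Figure D1:**
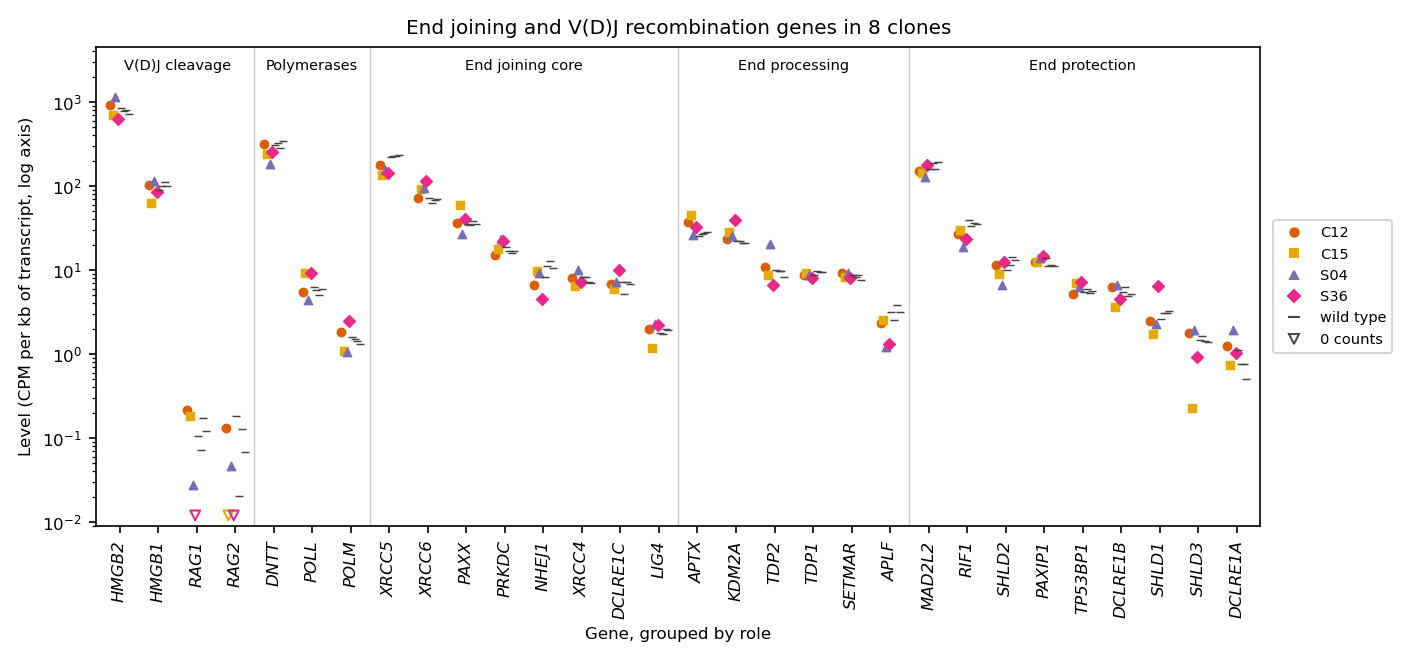
Level of each of the 30 genes in CPM per kb of transcript (log axis), by role, with 1 mark per clone. RAG1 and RAG2 lie below 0.22 in every clone, and open triangles at the lower edge mark clones with 0 counts.

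None of the 29 tested members passed an adjusted p of 0.05 for knockout against wild-type clones by edgeR's quasi-likelihood test, where 0.316% of all tested genes passed. At an unadjusted p under 0.05 there were 5 members, XRCC5, RIF1 and APLF on the lower side and XRCC6 and KDM2A on the higher, beside 15.5% of all tested genes (6.99% lower, 8.47% higher). DESeq2 called 1 member, XRCC5, where it called 3.66% of genes, and limma-voom called 0 of the members and 0.66% of genes. The median log2 fold change over tested members was 0.086, beside 0.020 over all tested genes, with 17 members above 0 and 12 below. In 4 members every knockout clone lay on 1 side of every wild-type clone (XRCC5, RIF1 and APLF below, KDM2A above), where 10.1% of all tested genes were so placed (5.62% below, 4.44% above). The labels do not say whether clones were cultured or sequenced together, so the p-values rest on variation among these clones, some of it possibly technical.

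**Figure D2:**
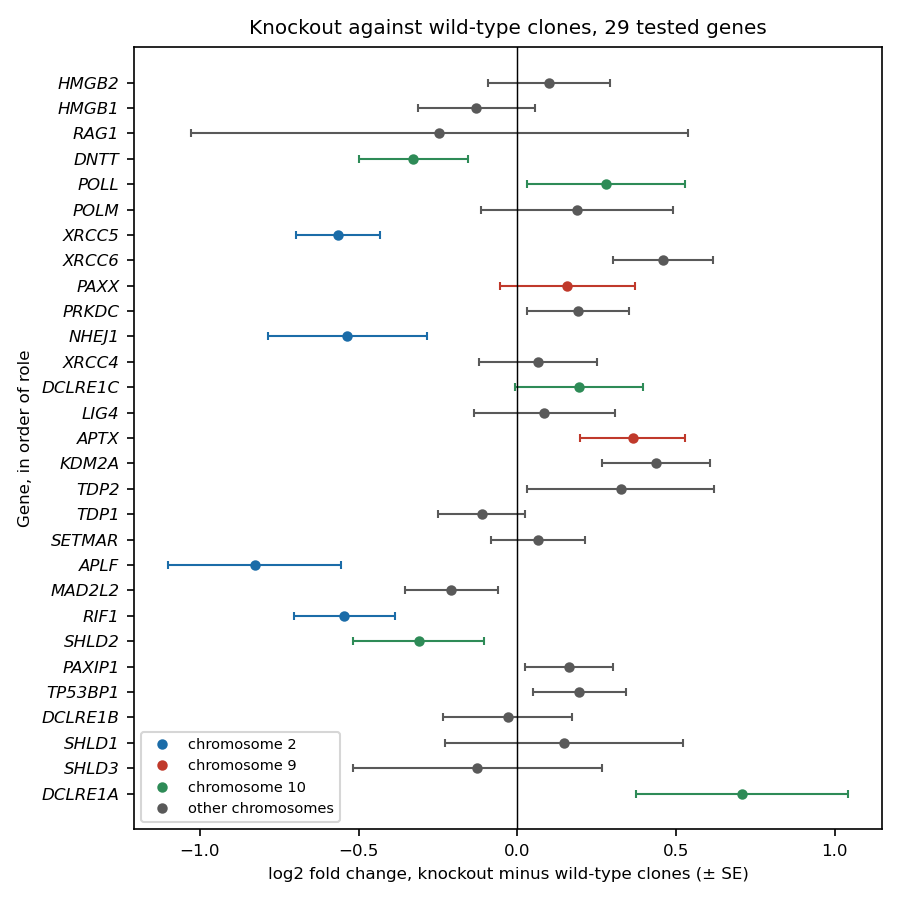
Log2 fold change of 29 tested genes, knockout minus wild-type clones, with its SE, coloured by chromosome. All 4 members on chromosome 2 lie below 0 (-0.54 to -0.83), and no member passed the adjusted threshold.

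RAG1 encodes the catalytic subunit of the recombinase and lies on chromosome 11 from 36510709 to 36593156 (hg38). Its counts were 37, 3, 3 and 0 in clones C12, C15, S04, S36, and 13, 9, 24 and 18 in WT10, WT13, WT28 and WT30. In CPM these were 1.43, 1.21, 0.181 and 0 in the knockout clones and 0.692, 0.472, 1.13 and 0.799 in the wild-type clones. Both C clones were thus above the wild-type range, C15 on 3 counts and thus at its floor, and both S clones below it. Summed over clones, C stood at 1.80 times wild type (95% counting interval 1.18 to 2.71) and S, with 3 counts, at 0.129 times (0.0259 to 0.394). Counting intervals leave out the spread between clones, and 37 of the 40 counts in C clones came from C12. Tested with that spread, C clones alone had a log2 fold change of 0.80 against wild type (adjusted p = 0.610 by edgeR). S clones alone had -2.90 (adjusted p = 0.0617 by edgeR). In bulk RNA, fewer expressing cells and less RNA per cell cannot be told apart. The knockout and wild-type groups overlapped, with a log2 fold change of -0.25 (SE 0.78, adjusted p = 0.917 by edgeR), whose sign turned without S04 (0.13) or without S36 (0.20). Between C and S clones the log2 difference was 3.69 (SE 0.88, adjusted p = 0.0900 by edgeR), from 40 counts in C clones and 3 in S clones, a ratio of 13.9 with a 95% counting interval of 4.43 to 70.4. The log2 difference was 2.88 without S36 and 7.60 without S04, where the S side is at 0 counts and the fitted value is no bound. With all clones the difference passed by edgeR with no low-count filter (adjusted p = 0.0118, where 2.43% of genes passed) and did not pass with DESeq2 or limma-voom.

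RAG2, the chromatin-reading partner of RAG1 on the other strand of the same locus (chromosome 11, 36575574 to 36598279), had 9 counts in C12, 2 in S04 and 0 in C15 and S36. Wild-type clones had 9, 1, 7 and 4 counts. These levels, at most 0.479 CPM, were too low for a test, and knockout clones together stood at 0.736 times the wild-type level (95% counting interval 0.321 to 1.597). The log2 ratio of RAG2 to RAG1 within clones was -1.40 ± 1.61 in knockout and -1.35 ± 0.62 in wild-type clones (SD, n = 4 each, exact two-sided permutation p = 0.943), values that rest on these few counts. S36 had 0 counts of both genes, so its ratio of 0 comes only from the prior count added before the logarithm. C15 had 0 counts of RAG2, so the same addition largely sets its ratio of -3.53. The test therefore cannot decide whether the ratio differs between groups. The overlap of RAG1 and RAG2 is one of gene spans, and whether counting used strand is unknown. Reads in any exon that the genes share could therefore not be fully told apart. Of the neighbours at the locus, LDLRAD3 was also low, at 0.807 to 2.37 CPM in knockout and 0.944 to 2.45 in wild-type clones. COMMD9 was at 25.2 ± 2.15 and 29.3 ± 2.03 CPM. IFTAP was at 41.5 ± 10.9 CPM in knockout and 54.7 ± 4.67 in wild-type clones, TRAF6, a signalling ubiquitin ligase, at 16.3 ± 4.03 and 13.0 ± 1.37, and PRR5L at 16.8 ± 6.66 and 10.9 ± 4.59 (SD, n = 4 each). Of the 5 neighbours tested 0 passed the threshold.

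DNTT, on chromosome 10 from 96304396 to 96338564, was at 630.0, 472, 364 and 496 CPM in clones C12, C15, S04, S36, and at 605, 635, 553 and 669 in WT10, WT13, WT28 and WT30. C12 lay within the wild-type range and the other 3 knockout clones below it. The log2 fold change was -0.33 (SE 0.17, adjusted p = 0.392 by edgeR). The median over 78 tested genes within 5 Mb of DNTT was 0.13. POLL and POLM, the gap-filling polymerases of the same family, differed between knockout clones. POLL was at 24.6 CPM in C15 and 24.8 in S36 but 14.8 in C12 and 11.8 in S04, against 13.3 to 16.9 in wild-type clones (log2 fold change 0.28, SE 0.25). POLM was at 6.495 CPM in S36 and 4.82 in C12 but 2.83 in C15 and 2.78 in S04, against 3.42 to 4.20 in wild-type clones (0.19, SE 0.30).

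HMGB2 was at 1079, 822, 1331 and 736 CPM in clones C12, C15, S04, S36, against 833 to 999 in wild-type clones, with a log2 fold change of 0.10 (SE 0.19). HMGB1 was at 335, 205, 376 and 275 CPM in the same clones, against 291 to 361 in wild-type clones (-0.13, SE 0.18). In both genes knockout clones lay on either side of the wild-type range. The log2 ratio of HMGB2 to HMGB1 within clones was 1.73 ± 0.25 in knockout and 1.51 ± 0.19 in wild-type clones (SD, n = 4 each, exact two-sided permutation p = 0.229). HMGB1 has many processed copies in the genome. The table lists 48 of them, with counts equal to 14.8% of those of HMGB1, so its level is uncertain.

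The knockout means of the Ku subunits lay on opposite sides of the wild-type means. XRCC5 (Ku80), on chromosome 2 from 216107464 to 216206303, was at 631, 491, 556 and 518 CPM in clones C12, C15, S04, S36, against 800.3, 807, 806 and 834 in WT10, WT13, WT28 and WT30. All knockout clones lay below all wild-type clones, which themselves differed little (812 ± 15.04 CPM, SD, n = 4). The log2 fold change was -0.56 (SE 0.13, adjusted p = 0.112 by edgeR). It passed by DESeq2 (adjusted p = 0.00133) and by edgeR without C12 (-0.64, adjusted p = 0.0371), where 3.13% of genes passed. XRCC6 (Ku70), on chromosome 22 from 41621119 to 41664048, was at 164, 211, 217 and 266 CPM in clones C12, C15, S04, S36, against 165, 142, 157 and 160.0 in the wild-type clones. C12 lay within the wild-type range and the other 3 above it (log2 fold change 0.46, SE 0.16, adjusted p = 0.206 by edgeR).

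Within each clone the log2 ratio of XRCC5 to XRCC6 was 1.94, 1.22, 1.36 and 0.96 in clones C12, C15, S04, S36, against 2.28, 2.51, 2.36 and 2.38 in the wild-type clones. The groups did not overlap, and the means differed by -1.01 (1.37 ± 0.42 against 2.38 ± 0.094, SD, n = 4 each). The exact two-sided permutation p was 0.0286, the smallest that 70 assignments allow. The ratios of RAG2 to RAG1 and of HMGB2 to HMGB1 were tested in the same way, and p was not corrected over these tests. Without any 1 wild-type clone the p for XRCC5 to XRCC6 was 0.0571, at a difference between -1.04 and -0.97. Of all tested genes taken singly, 10.1% had groups that did not overlap, and no such share was computed over pairs of genes. XRCC5 lies on chromosome 2, whose genes as a whole were lower in knockout clones. The median log2 fold change within 5 Mb of XRCC5 was -0.52, and the part of this in the ratio was not tested. Per kb of transcript XRCC5 was above XRCC6 in every clone, at 144 against 116 CPM per kb in S36 and 232 against 69.7 in WT30.

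**Figure D3:**
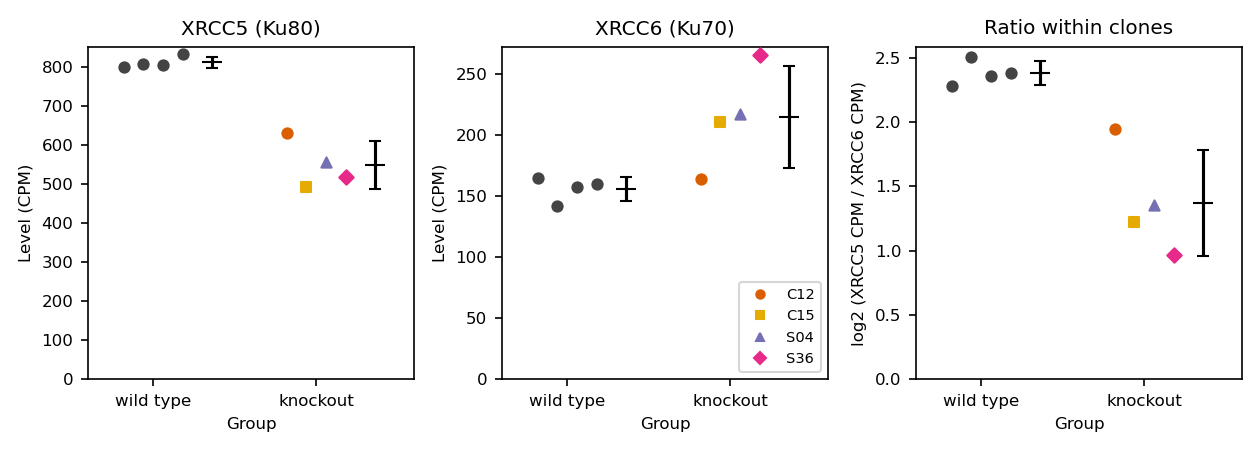
Levels of XRCC5 and XRCC6 in CPM and the log2 ratio of these levels, with 1 point per clone and the mean ± SD of each group beside it. Knockout clones lie below wild-type clones in XRCC5 and in the ratio, and C12 lies nearest to wild type.

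Of the other 6 core joining genes 5 had log2 fold changes above 0 and NHEJ1 below, with none past the threshold. PRKDC, the large DNA-dependent kinase on chromosome 8, was at 202, 237, 314 and 301 CPM in clones C12, C15, S04, S36, against 215 to 252 in wild-type clones (log2 fold change 0.19, SE 0.16, adjusted p = 0.606 by edgeR). Both S clones thus lay above the wild-type range, and between C and S clones the log2 difference was -0.49 (SE 0.15, adjusted p = 0.160 by edgeR). DCLRE1C was at 17.7 ± 4.09 CPM in knockout and 15.6 ± 2.31 in wild-type clones (0.20, SE 0.20). The ligation pair had group means close to each other. XRCC4 was at 12.7 ± 2.33 and 12.3 ± 1.12 CPM (0.065, SE 0.19), and LIG4 at 7.80 ± 2.06 and 7.57 ± 0.492 (0.086, SE 0.22). PAXX, a Ku-binding scaffold on chromosome 9, was at 33.1 ± 10.96 and 29.1 ± 1.27 CPM (0.16, SE 0.21), with C15 at 48.0 and S04 at 21.98. NHEJ1, the XLF filament protein that bridges ends, was at 13.8, 20.2, 19.3 and 9.32 CPM in clones C12, C15, S04, S36, against 17.1, 23.5, 26.5 and 22.1 in wild-type clones. Its groups overlapped through WT10 (log2 fold change -0.54, SE 0.25, adjusted p = 0.336 by edgeR).

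Among end processing genes APLF, a histone chaperone that binds Ku and PARP marks, was at 8.91, 9.69, 4.65 and 5.12 CPM in clones C12, C15, S04, S36. Wild-type clones were at 12.3, 9.76, 14.6 and 12.1 CPM, so the groups did not overlap, but C15 and WT13 were almost equal. The log2 fold change was -0.83 (SE 0.27, adjusted p = 0.198 by edgeR), and C clones exceeded S clones by 0.92 (SE 0.28, adjusted p = 0.148 by edgeR). KDM2A, grouped here for convenience, is a histone demethylase gene on chromosome 11. It was at 164, 199, 175 and 275 CPM in clones C12, C15, S04, S36, against 145 to 156 in wild-type clones (0.44, SE 0.17, adjusted p = 0.257 by edgeR). Every knockout clone lay above every wild-type clone. APTX, which removes AMP from stalled ligation products, lies on chromosome 9 and was at 81.0, 96.5, 56.0 and 71.0 CPM in clones C12, C15, S04, S36, against 55.4 to 61.5 in wild-type clones (0.36, SE 0.17, adjusted p = 0.324 by edgeR). TDP1 and TDP2, which remove trapped topoisomerases, and SETMAR had log2 fold changes between -0.11 and 0.33 and unadjusted p above 0.05. TDP2 was at 41.9 CPM in S04 alone, and at 13.8 to 22.6 in the other knockout clones.

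Among end protection genes RIF1, the effector of TP53BP1, was at 307, 339, 213 and 269 CPM in clones C12, C15, S04, S36, against 445, 383, 413 and 403 in WT10, WT13, WT28 and WT30. The groups did not overlap (log2 fold change -0.54, SE 0.16, adjusted p = 0.165 by edgeR). TP53BP1 itself was at 40.8 ± 5.68 CPM in knockout and 35.5 ± 1.71 in wild-type clones (0.20, SE 0.15). Of the shieldin subunits SHLD1 and SHLD3 were low. SHLD1 was at 7.34 CPM in S36 and 2.02 to 2.82 in the other knockout clones, against 2.98 to 3.77 in wild-type clones (0.15, SE 0.37). SHLD2 was at 33.5 ± 8.74 CPM in knockout and 41.6 ± 6.40 in wild-type clones (-0.31, SE 0.21). SHLD3 had 1 count in C15 and was at 1.605 to 3.38 CPM in the other knockout clones, against 2.44 to 2.89 in wild-type clones (-0.13, SE 0.39). MAD2L2 (REV7), the shieldin subunit it shares with a lesion bypass polymerase, was at 168 ± 24.6 and 194 ± 19.6 CPM (-0.21, SE 0.15). PAXIP1, which binds phosphorylated TP53BP1, was at 50.3 ± 4.32 and 45.0 ± 5.30 CPM (0.16, SE 0.14). The nucleases DCLRE1A and DCLRE1B, grouped here for convenience, were at 0.71 (SE 0.33) and -0.030 (SE 0.20), the first from 5.37 ± 2.21 against 3.42 ± 1.09 CPM. None of these passed the threshold.

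The 4 members on chromosome 2, XRCC5, NHEJ1, RIF1 and APLF, all had log2 fold changes below 0, with a median of -0.55. The 18 tested members off chromosomes 2, 9 and 10 had a median of 0.093. These 18 include SHLD1 on chromosome 20, whose tested genes had medians of -0.35, 0.043, -0.45 and -0.15 in clones C12, C15, S04, S36. Genes of chromosome 2 as a whole were lower in knockout clones. Their median log2 difference from the wild-type mean, over 948 tested genes, was -0.34, -0.43, -0.36 and -0.24 in clones C12, C15, S04, S36, and within -0.033 and 0.028 in wild-type clones. Around XRCC5, the median log2 fold change of the 46 tested genes within 5 Mb was -0.52, close to that of XRCC5 itself. Around NHEJ1, which lies 2.96 Mb from XRCC5 and shares most of that window, it was -0.50, beside -0.54 for NHEJ1. Around RIF1 (chromosome 2, 151409883 to 151508013) it was -0.37 over 20 genes, and around APLF (68467561 to 68655862) -0.24 over 64 genes, against -0.54 and -0.83 for the genes. In S04 RIF1 was at -0.94 and its neighbours at -0.20, and APLF was at -1.36 and its neighbours at -0.29. In S36 APLF was at -1.22 and its neighbours at -0.058. The part of the chromosome-wide difference in these values was not tested. RIF1 lies opposite NEB and APLF overlaps PROKR1.

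**Figure D4:**
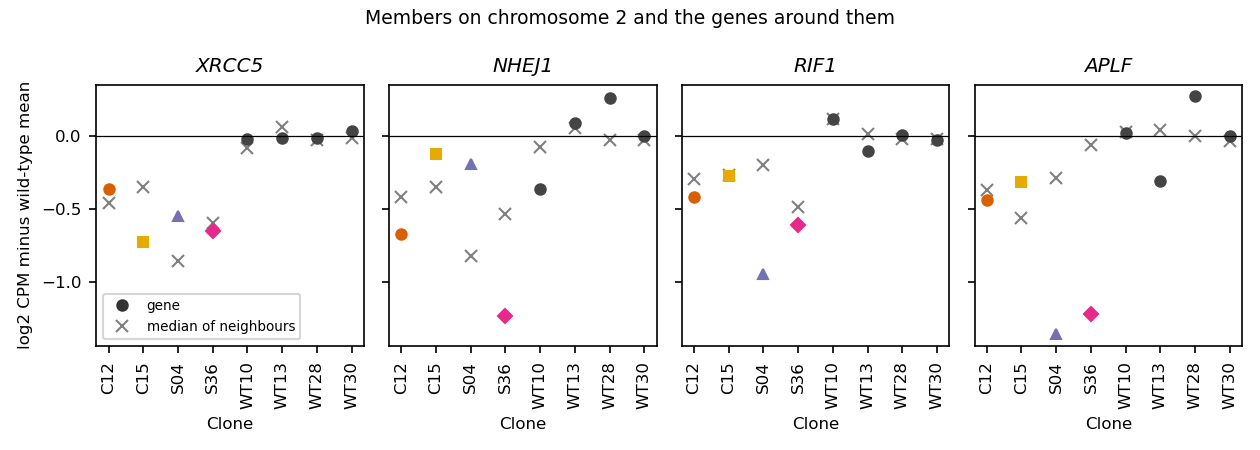
Log2 CPM minus the wild-type mean for the 4 members on chromosome 2 in each clone (filled marks), with the median of the tested genes within 5 Mb (crosses). XRCC5 lies near its neighbours in C12 and S36, below them in C15 and above them in S04. NHEJ1 lies above its neighbours in C15 and S04 and below them in S36, and APLF lies far below its own in S04 and S36.

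Chromosome 9 stood higher in knockout clones, at a median of 0.21, 0.37, 0.40 and 0.36 in clones C12, C15, S04, S36, and it carries APTX and PAXX. The genes within 5 Mb had a median log2 fold change of 0.27 around APTX and 0.38 around PAXX, beside 0.36 and 0.16 for these genes. On chromosome 10, which carries DNTT, POLL, DCLRE1C, SHLD2 and DCLRE1A, the median was 0.30 in S36 and -0.11 to 0.041 in the other knockout clones. In S36 DCLRE1C was at 0.61, POLL at 0.69 and DCLRE1A at 0.42, while DNTT was at -0.31 and SHLD2 at 0.024. POLL was also at 0.68 in C15, where the chromosome median was -0.11. DCLRE1A was higher in C12 (0.71) and S04 (1.32) than in S36. Around XRCC6 the neighbours had a median of 0.036 over 133 genes, and around KDM2A 0.036 over 194 genes, against 0.46 and 0.44 for the genes. The part of these differences by chromosome was not tested.

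Between C and S clones 0 members passed by edgeR, DESeq2 or limma-voom, where these called 0.358%, 4.57% and 0.625% of all tested genes, and 5 of 29 members had an unadjusted p under 0.05 by edgeR against 17.1% of genes. These were RAG1, PRKDC and APLF, given above, and APTX (log2 difference 0.48, SE 0.17, adjusted p = 0.208 by edgeR) and RIF1 (0.42, SE 0.16, adjusted p = 0.237). When the S clones alone were set against wild type, 5 members passed by edgeR, where 14.5% of 15219 genes did (7.36% lower, 7.17% higher). XRCC5 (-0.61), RIF1 (-0.78) and APLF (-1.34) fell, and XRCC6 (0.62) and PRKDC (0.40) rose, with adjusted p of 0.0107, 0.0106, 0.0106, 0.0172 and 0.0460. With the C clones alone 0 members passed, where 0.0395% of genes did, and 3 had an unadjusted p under 0.05 against 10.3% of genes. These comparisons share the wild-type clones, and of the direct tests of C against S the exception among members was RAG1 with no low-count filter, given above.

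Knockout clones were more spread than wild-type clones in most genes, members included. The SD of log2 CPM was larger among knockout clones in 28 of 29 members, against 88.9% of all tested genes, and without C15 in 27 of 29 against 80.1%. PAXIP1 was the exception with all clones. C12 was the knockout clone farthest from the wild-type mean in 0 members, C15 in 7, S04 in 11 and S36 in 11, against 5.22%, 38.5%, 29.3% and 26.9% of all tested genes. TDP1, with an SD of 0.079 in knockout and 0.067 in wild-type clones, was the steadiest member among knockout clones.

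Other genes of these pathways were read from lists drawn up for this purpose. With all clones, no gene in them passed the threshold over all genes tested by edgeR. POLQ passed by DESeq2 (adjusted p = 0.00713) and by edgeR without C12 (adjusted p = 0.0278), IKZF1 by DESeq2 (adjusted p = 0.0350) and FEN1 by edgeR without C12 (adjusted p = 0.0448). Among 17 tested regulators of the RAG genes, 4 had an unadjusted p under 0.05, 2 higher (SATB1 and MYB) and 2 lower (IKZF1 and GATA3), beside 15.5% of all tested genes. IKZF1, the Ikaros factor, was at 129 ± 25.7 CPM in knockout and 192 ± 8.93 in wild-type clones (log2 fold change -0.57), GATA3 at 107 ± 14.6 and 134 ± 4.25 (-0.32), and SATB1, a chromatin organiser of thymocytes, at 36.2 ± 9.26 and 23.6 ± 3.57 (0.63). MYB, named to complete that count after its values were seen, was at 846 ± 91.5 and 684 ± 34.1 CPM (0.31). Of 8 partners of the RAG proteins DDB1 had the smallest p (183 ± 37.2 and 254 ± 18.0 CPM, -0.48). Among 18 genes of alternative end joining, 12 were above 0 and 6 below. POLQ, the polymerase of that route, was at 49.5 ± 7.18 CPM in knockout and 31.8 ± 1.43 in wild-type clones (0.63, SE 0.15, adjusted p = 0.109 by edgeR), PARP2 at 17.8 ± 4.73 and 11.7 ± 1.98 (0.57), and FEN1, a flap nuclease, at 156 ± 52.7 and 227 ± 12.5 (-0.53). Of 17 other end joining factors 9 were above 0 and 8 below, with RNF168, a histone ubiquitin ligase upstream of TP53BP1, at 307 ± 74.8 and 413 ± 40.6 CPM (-0.43) and BRCC3 at 44.9 ± 3.27 and 56.1 ± 4.87 (-0.33). Of 14 partners of the end protection genes 6 were above 0 and 8 below, with 0 at an unadjusted p under 0.05. NCOA6 had the smallest p and was at 97.63 ± 37.25 CPM in knockout and 135.9 ± 3.69 in wild-type clones (-0.49). TRIP13, the remodeller of MAD2L2, was at 34.2 ± 11.4 and 25.0 ± 1.73 CPM (0.47). Each SD is over n = 4 clones a group.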

How the data were processed

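The authors deposited raw counts per gene symbol for 8 clones, 4 a group, in 1 table. According to the submitters' processing notes the tools were Subread, SAMtools, TopHat2 and FastQC and the build hg38, without versions, and the annotation and strand setting were not stated. Counts of every pair of clones within a group differed by more than sampling noise (chi-square per degree of freedom at least 12.3). Genes were filtered with filterByExpr (minimum count 10), which left 14243 of 61228, scaled with TMM and tested with edgeR 4.0.16 (quasi-likelihood, two-sided, R 4.3.3) and p-values were adjusted by Benjamini-Hochberg across the tested genes, with a threshold of 0.05. For C against S, the fit had C, S and wild type as 3 groups. The test was tried on simulated counts. DESeq2 1.42.0 and limma 3.58.1 (voom) were alternatives, as were other scaling, filters, thinning to 2730285 counts and leaving out clones. Differences between single clones used log2 CPM with a prior count of 2. Ratios were compared by exact permutation over 70 assignments. Positions and transcript lengths came from GENCODE release 29 (hg38), which matched 57038 symbols, and promoter sequences from RefSeq. Members, lists and tests were chosen with earlier results of these data known. Fold changes are given for members of the cleavage, polymerase, joining and protection groups and for others with an unadjusted p under 0.05, and at most 3 genes of each further list by smallest p. Of the 30 members 19 overlap a gene on the other strand and 9 a gene on the same strand, by gene span with introns included. Reads in exons shared on the same strand cannot be told apart. For the other strand this depends on the strand setting, which was not stated.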

Additional observations from a re-analysis of the deposited data

Results flagged for a closer look

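Among 58 sets of 4 clones examined, 1 clone stood apart in 2 sets on the log2 CPM scale, where chance gives about 1 in 20 sets, or 2.9. TDP2 was low in WT30, at a log2 CPM of 4.09 (16.9 CPM), against 20.1 to 20.7 CPM in the other wild-type clones. PAXIP1 was high in WT10, at a log2 CPM of 5.73 (52.9 CPM), against 41.9 to 43.3 CPM in the others.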

How the results depend on the processing

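No paired analysis was possible because the clone names carry no number shared between groups. Of 26 members whose fold change is given, 14 kept their direction in every alternative run, and XRCC5 ran from -0.64 to -0.50. The count of members past the threshold for knockout against wild type was 1 by DESeq2 and 5 with S clones only, and 0 to 1 over clones left out, the 1 being XRCC5 without C12. For C against S it was 1 with no low-count filter (RAG1) and 0 over clones left out. The members' median was 0.19 in thinned libraries and -0.051 with C clones only, and 0.0045 to 0.12 over clones left out. The XRCC5 to XRCC6 difference ran from -1.20 to -0.87 over clones left out (without WT10, WT13, WT28 and WT30 it was -1.04, -0.97, -1.02 and -1.01, each at p = 0.0571 by exact permutation), and the RAG2 to RAG1 difference from -0.52 to 0.66 (0.25 without WT10). Signs turned with C clones only for RAG1 (0.80), PRKDC (-0.092), DCLRE1C (-0.041), XRCC4 (-0.051), LIG4 (-0.14) and SHLD1 (-0.43), with S clones only for PAXX (-0.10) and DCLRE1B (0.019), by limma-voom for SHLD1 (-0.013) and DCLRE1B (0.024), and in thinned libraries for DCLRE1B (0.14). Over clones left out the signs of RAG1 (-1.81 to 0.20, 0.13 without S04), HMGB1 (-0.26 to 0.0050), HMGB2 (-0.074 to 0.22), POLM (-0.079 to 0.38), XRCC4 (-0.061 to 0.12), PAXX (-0.057 to 0.31), SHLD1 (-0.42 to 0.32), SHLD3 (-0.34 to 0.059, 0.057 without S36) and DCLRE1B (-0.15 to 0.084, 0.030 without WT13 and 0.045 without S36) turned. The cause was not tested. The depth of C15 limits RAG1, RAG2 and SHLD3 most, with 3, 0 and 1 counts there.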

Other observations

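TDP2 in S04 stood at 1.11 in log2 above the wild-type mean and in S36 at -0.49, while the 82 tested genes within 5 Mb had medians of 0.50 and 0.42 in these clones. SHLD1, on chromosome 20, was at 1.06 in S36 and at -0.28 in C12 and -0.40 in S04, beside medians of 0.30, -0.55 and -0.63 for 61 tested genes within 5 Mb. MAD2L2 was below the wild-type mean in C12, C15 and S04 (-0.20, -0.27 and -0.44) and at 0.055 in S36.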
